A study of Mus musculus with 5 samples.

Results

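The TCF factors and Wnt feedback genes are 10 genes of the canonical Wnt pathway, chosen by name: the TCF/LEF transcription factor genes Tcf7, Tcf7l1, Tcf7l2 and Lef1, the beta-catenin gene Ctnnb1 with the destruction complex genes Axin1 and Apc, and the feedback genes Axin2, Notum and Sp5. Every probe of the array whose platform annotation carries 1 of these symbols was taken, which gave 14 of 25697 probes for 8 of the 10 genes, among 16593 genes named on the array. No probe is annotated to Tcf7 or Axin1, so they were not analysed here. RNA levels were read on Illumina bead arrays of 1 colour, with 1 array per sample, in 46C, a mouse embryonic stem cell line that carries GFP at Sox1, a gene of early neural cells. In the N2B27 48 hr group (n = 3) the cells had been trypsinized, washed and grown for 48 hr in N2B27, a defined serum-free medium, with nothing added. In the ESC group (n = 2) the same line was kept pluripotent on gelatin, without feeder cells or serum, in N2B27 with LIF, BMP and the FGF receptor inhibitor PD173074 at 100 nM. B27 without vitamin A was used throughout, and the labels name no added Wnt ligand or Wnt inhibitor. All samples are of 1 cell line, and nothing in the labels says that replicates were separate cultures, so the p-values reflect only how far these samples differ, which could be technical.

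In canonical Wnt signalling, beta-catenin is marked for destruction by a complex built on Axin and APC until a Wnt ligand is bound, and the beta-catenin that is spared joins TCF/LEF factors on DNA. The 4 factors share a DNA-binding HMG box and differ in their bias, with TCF7L1 acting mainly as a repressor and LEF1 and TCF7 more readily as activators. In mouse embryonic stem cells TCF7L1, formerly called Tcf3, is known to hold back genes of the pluripotency network, and beta-catenin relieves that repression. Axin2, Notum and Sp5 are induced by the pathway in many tissues and dampen it in turn.

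The letters that TCF/LEF factors prefer were looked for in the 250 bases before each annotated transcription start of the members, read 5′ to 3′ on the gene's strand from RefSeq promoter windows (GRCm38.p6). The motifs were CTTTGAA as well as CTTTGAT, together with CTTTGTA as well as CTTTGTT, on both strands, and overlapping matches were counted. Windows were held for 7 members, and 3 of their 13 windows had a match (23.1%), against 4874 of 32851 windows of all genes (14.8%). The 3 are shown because they hold the motif and belong to a feedback gene and to both kinds of changed TCF/LEF gene, 1 that rose and 1 that fell. Capitals mark the matches. The Sp5 window is chr2:70474673-70474922 on the + strand, the Lef1 window, before an internal start, is chr3:131156044-131156293 on the + strand, and the Tcf7l2 window, also before an internal start, is chr19:55895071-55895320 on the + strand.
Sp5 promoter window: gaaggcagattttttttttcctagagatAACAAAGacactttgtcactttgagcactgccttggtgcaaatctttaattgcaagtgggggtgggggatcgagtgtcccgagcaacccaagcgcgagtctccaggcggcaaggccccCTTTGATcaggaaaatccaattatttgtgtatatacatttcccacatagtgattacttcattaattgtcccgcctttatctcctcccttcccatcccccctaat
Lef1 promoter window: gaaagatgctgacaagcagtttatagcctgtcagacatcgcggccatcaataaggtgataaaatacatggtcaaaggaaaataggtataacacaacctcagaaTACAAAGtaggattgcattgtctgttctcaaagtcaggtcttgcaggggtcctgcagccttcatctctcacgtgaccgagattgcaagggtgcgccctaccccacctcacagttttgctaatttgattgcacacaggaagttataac
Tcf7l2 promoter window: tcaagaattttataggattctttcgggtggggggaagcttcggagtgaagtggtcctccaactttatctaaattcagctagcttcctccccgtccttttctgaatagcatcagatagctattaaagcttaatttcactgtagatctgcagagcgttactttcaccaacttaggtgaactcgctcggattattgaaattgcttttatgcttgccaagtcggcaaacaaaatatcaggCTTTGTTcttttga
The Sp5 window held 2 matches, the nearer ending 97 bases before the start. The single matches of Lef1 and Tcf7l2 ended 140 and 7 bases before their starts. A match is a run of letters and not a measured binding site.

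The arrays were first read for detection, brightness and cell type markers. A probe was called detected where its deposited detection p was under 0.05, and 42.1% to 45.7% of probes were detected on the N2B27 48 hr arrays, against 45.7% and 47.5% on the ESC arrays. Mean signal was 187 on N2B27 48 hr replicate 1, the dimmest array, and 235 to 264 on the others. Of the 8 stem cell markers all fell after 48 hr, where 21.4% of all genes in the fit fell. The 4 markers of postimplantation epiblast all rose, where 23.8% of all genes in the fit rose. The smallest changes were those of Pou5f1 (-0.44) and Otx2 (0.43), each detected on all 5 arrays. By their brightest probes, Klf4 and Tcl1 were detected in ESC alone and Fgf5 in N2B27 48 hr alone. They thus passed the detection filter through the arrays where they were high. Of 4 neural markers Sox1, Pax6 and Neurog2 were detected on 0 arrays, and Nes was detected on all 5 and did not pass (-0.045, adjusted p = 0.880). Of 3 primitive streak and mesoderm markers in the fit, Gsc and Evx1 fell and Mixl1 did not pass, and the summed signal of that list was 246 to 263 on N2B27 48 hr arrays and 402 and 421 on ESC arrays. Of 6 endoderm markers 2 were in the fit and 0 passed. Of 7 fibroblast markers 2 rose (Thy1 and Dcn) and 4 were detected on 0 arrays, and the summed signal of the list was 606 to 703 on N2B27 48 hr arrays and 463 to 467 on ESC arrays. The summed signal of 4 trophectoderm markers was 407 to 569 on N2B27 48 hr arrays and 274 and 283 on ESC arrays, with Krt8 and Krt18 higher, Elf5 detected on 0 arrays and Cdx2 on 1. Their part in the results below was not tested.

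After 48 hr in N2B27 the TCF/LEF factor genes changed in opposite directions, with Lef1 higher and Tcf7l1 and Tcf7l2 lower, and the feedback inhibitor gene Notum lost most of its signal. Ctnnb1, Apc and Axin2 did not pass the test, and Sp5 was detected on 0 arrays. Of the 7 member genes in the fit, 1 rose and 3 fell at an adjusted p under 0.05. Over all 8828 genes in the fit 45.2% passed, 23.8% upward and 21.4% downward, so a changed gene is common in this comparison. Over all probes in the fit 2901 were higher and 2526 lower, and with each array scaled to its median the split was 1061 higher and 2479 lower. Arrays of both groups did not overlap for 5 of the 7 member genes, against 65.0% of all genes. The test was limma's on normalized log2 signals, adjusted over 12605 probes that were detected on at least 2 of the 5 arrays, and a gene was read by its brightest such probe. Lef1 was detected in N2B27 48 hr alone, so it passed this filter through the arrays where it was high. With detection required on all 5 arrays 0 member genes rose and 2 fell. In bulk samples, fewer cells that express a gene and less RNA of it per cell cannot be told apart.

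**Figure D1:**
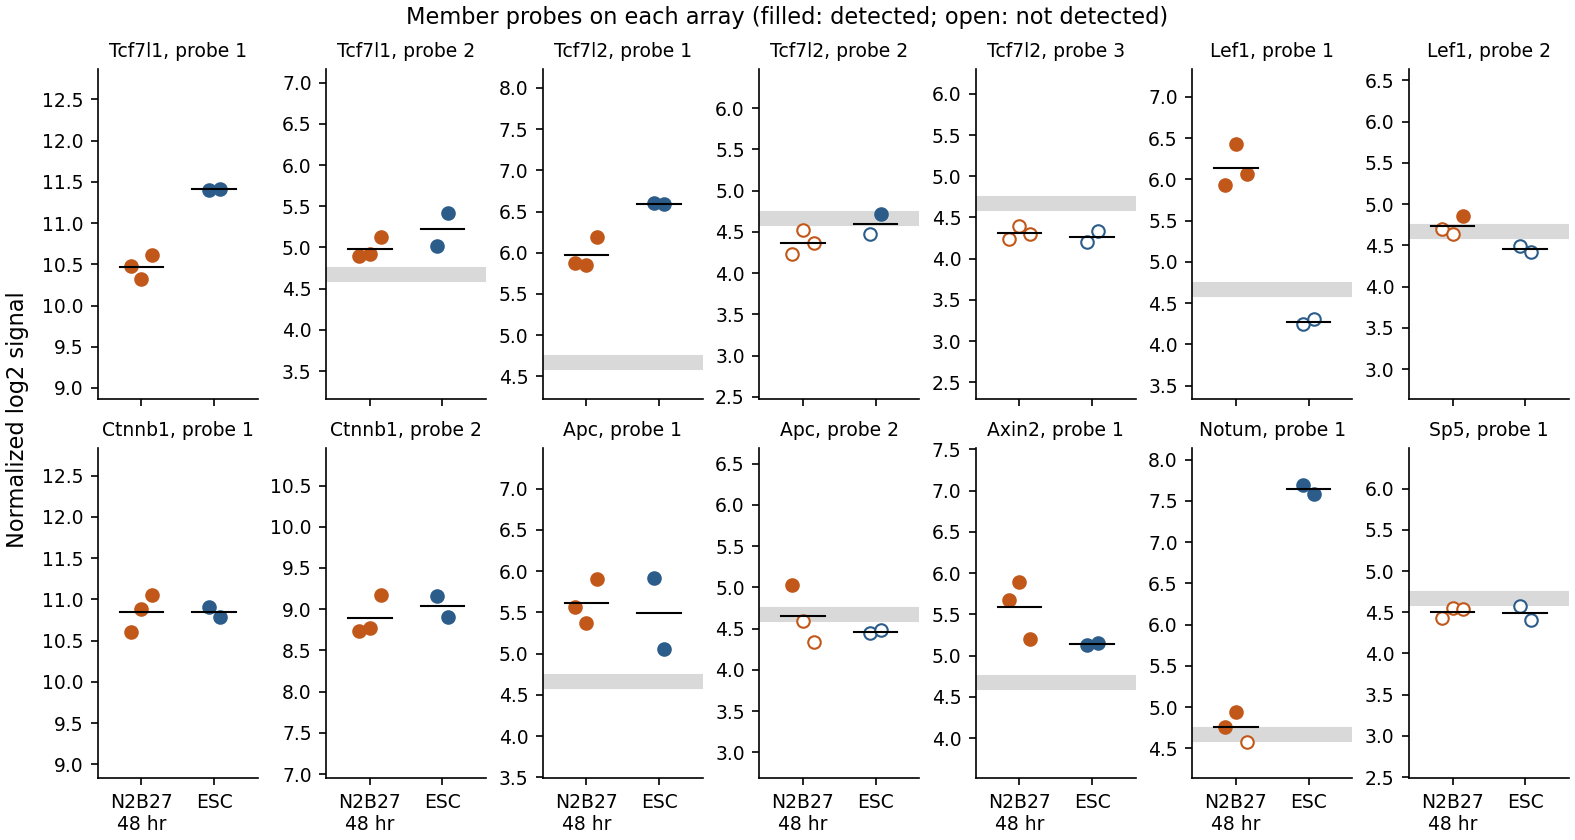
Normalized log2 signal (vertical axis, each panel spanning 4 log2 units) of the 14 member probes on the 3 N2B27 48 hr and 2 ESC arrays, with probes of a gene numbered by brightness. Filled circles were detected at p under 0.05, open circles were not, black lines are group means, and the grey band is the range over arrays of the lowest detected signal. Lef1 probe 1 is higher in N2B27 48 hr, Tcf7l1 probe 1 and Tcf7l2 probe 1 are lower, and Notum falls to the grey band. For both Ctnnb1 probes the groups overlap.

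Tcf7l1 encodes the TCF factor that mainly represses. Its brighter probe had deposited signals of 1090.4, 1357 and 1775 on the N2B27 48 hr arrays, against 3234 and 2877 on the ESC arrays. Every N2B27 48 hr array lay below both ESC arrays. After normalization the mean log2 signal was 10.47 ± 0.15 in N2B27 48 hr and 11.41 ± 0.0058 in ESC (SD, n = 3 and 2). The log2 change was -0.94 ± 0.096 (SE, adjusted p = 1.9e-05), so that the transcript was 1.92-fold lower. It passed under all 14 alternative settings, at -1.14 to -0.87. A second probe, annotated to another RefSeq transcript of the gene, was dim. Its signals were 67.1, 71.4 and 78.9 on the N2B27 48 hr arrays, against 77.2 and 89.4 on the ESC arrays, so the groups overlapped. Its log2 change of -0.24 did not pass (95% interval -0.61 to 0.12, adjusted p = 0.269), and the difference between the probes was not tested.

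Tcf7l2 encodes a TCF factor that can activate or repress. Its brightest probe gave signals of 86.3, 98.5 and 122 on the N2B27 48 hr arrays, against 155 and 146 on the ESC arrays, with no overlap. It was 1.54-fold lower, with a log2 change of -0.62 ± 0.15 (SE, adjusted p = 0.00755). This call rests on both ESC arrays. Without ESC replicate 1 the change was -0.61 (adjusted p = 0.0628), and without ESC replicate 2 it was -0.63 (adjusted p = 0.0612). The remaining ESC array was then assumed to vary like the other group. Of the other 2 probes, 1 was detected on ESC replicate 2 alone and 1 on 0 arrays, so neither entered the fit.

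Lef1 encodes the member that is most often an activator and is itself a Wnt target in many tissues. Its brighter probe gave 87.9, 128 and 114 on the N2B27 48 hr arrays, all detected, against 53.9 and 59.4 on the ESC arrays, where it was not detected. The fitted log2 change was 1.87 ± 0.17 (SE, adjusted p = 8.8e-06). Since the ESC level is only a bound, it was set at the lowest signal among detected probes of each ESC array, and Lef1 was then at least 2.89-fold higher in the main background setting. The fitted change ran from 0.85 without background correction to 2.07 without N2B27 48 hr replicate 1, and passed in all 13 alternatives in which the probe was tested. The probe passed the filter only through the N2B27 48 hr arrays, where it was high, and was not among the probes detected on all 5 arrays. The second Lef1 probe was detected on 1 of 3 N2B27 48 hr arrays and on 0 ESC arrays, which left it out of the fit. Its signals were 64.5, 65.7 and 72.2 in N2B27 48 hr and 63.1 and 63.3 in ESC, a difference of 0.28 in mean log2 signal.

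The spread between the factors can be read within each array. The log2 signal of Lef1 minus that of Tcf7l1 was -4.55, -3.89 and -4.55 on the N2B27 48 hr arrays and -7.16 and -7.11 on the ESC arrays. The zero of this difference has no meaning between different probes, but its shift of 2.80 between the groups has. The shift of Lef1 against Tcf7l2 was 2.48, and that of Tcf7l2 against Tcf7l1 was 0.32. For each of the 3 pairs the groups did not overlap, and the two-sided exact permutation test over the 5 samples gave p = 0.1 (adjusted p = 0.1 over the 3 pairs). This is the smallest p that the test can give over its 10 arrangements, so it cannot pass 0.05 here. As Lef1 was undetected in ESC, both shifts that involve it start from a level at background.

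**Figure D2:**
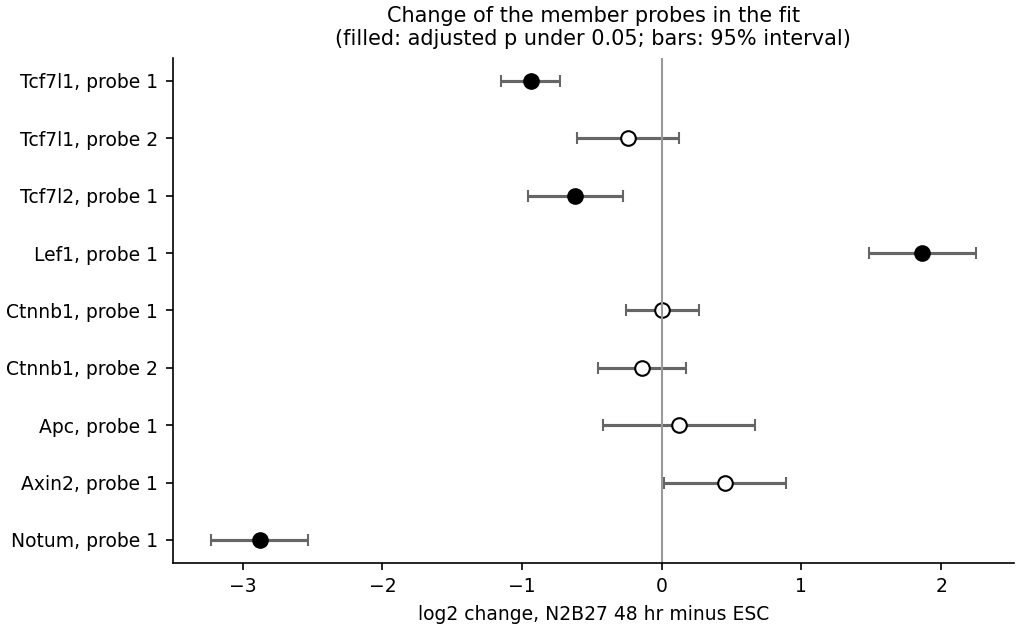
The log2 change (horizontal axis, N2B27 48 hr minus ESC) of the 9 member probes in the fit, with 95% intervals as bars and filled circles for an adjusted p under 0.05. Notum, Tcf7l1 probe 1 and Tcf7l2 probe 1 lie left of 0 and Lef1 probe 1 right of it, while the intervals of both Ctnnb1 probes, of Apc and of Tcf7l1 probe 2 span 0.

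Ctnnb1 encodes beta-catenin, the coactivator that TCF/LEF factors recruit. Its brighter probe gave 1200.5, 1999 and 2367 on the N2B27 48 hr arrays, against 2283 and 1844 on the ESC arrays. The groups overlapped, the log2 change was 0.0034 ± 0.12 (SE, adjusted p = 0.986), and the 95% interval ran from -0.26 to 0.27. The dimmer probe gave 337, 482 and 674 in N2B27 48 hr and 728 and 558 in ESC, with a log2 change of -0.14 (95% interval -0.46 to 0.17, adjusted p = 0.459). On both probes N2B27 48 hr replicate 1 was the lowest array. Without N2B27 48 hr replicate 3 the dimmer probe passed (-0.28, adjusted p = 0.0389) and the brighter one did not (adjusted p = 0.423).

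Apc encodes the scaffold that loads beta-catenin into the destruction complex. Its brighter probe gave 78.5, 82.2 and 106 on the N2B27 48 hr arrays, against 112 and 78.9 on the ESC arrays. The ESC arrays differed more from each other (SD 0.61 on the log2 scale) than those of any other member probe. The log2 change of 0.12 did not pass (95% interval -0.42 to 0.67, adjusted p = 0.726). Without ESC replicate 1 it was 0.54 and without ESC replicate 2 it was -0.30, neither past the threshold. The second Apc probe was detected on N2B27 48 hr replicate 1 alone and was not in the fit.

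Axin2 encodes a second Axin, which the pathway induces and which rebuilds the destruction complex, and it is the gene most widely used as a readout of Wnt activity. Its signals were 81.1, 100.3 and 81.0 on the N2B27 48 hr arrays, against 80.3 and 81.5 on the ESC arrays. After normalization the log2 signals were 5.67, 5.90 and 5.20 in N2B27 48 hr and 5.13 and 5.15 in ESC, so all 3 N2B27 48 hr arrays lay above both ESC arrays. In the deposited signals replicates 1 and 3 lay between the ESC arrays, so their place above them arose in normalization. The log2 change of 0.45 ± 0.20 (SE) did not pass (95% interval 0.014 to 0.89, adjusted p = 0.0885). The call and the size depended on which N2B27 48 hr arrays were used. Without N2B27 48 hr replicate 3 the change was 0.64 and passed (adjusted p = 0.00500). Axin2 passed in 2 of 14 alternatives. The other was the fit with the replicate number as a block, from which N2B27 48 hr replicate 3 also drops out. The change was 0.28 with median scaling (adjusted p = 0.382) and 0.20 without background correction (adjusted p = 0.0957). Without N2B27 48 hr replicate 2 it was 0.30 (adjusted p = 0.263).

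Notum encodes a secreted enzyme that removes the lipid from Wnt proteins and so inactivates them. Its probe gave 65.4, 71.9 and 65.5 on the N2B27 48 hr arrays, of which replicates 1 and 2 were detected, against 288 and 244 on the ESC arrays. The mean log2 signal was 4.76 ± 0.18 in N2B27 48 hr and 7.64 ± 0.081 in ESC (SD, n = 3 and 2). The log2 change was -2.88 ± 0.16 (SE, adjusted p = 1.6e-07), or 7.36-fold lower, with the third N2B27 48 hr array not above background. The change was -1.60 without background correction, -1.93 with an offset of 50 and -1.85 in the authors' deposited normalized values, and the call held in all 13 alternatives that tested the probe.

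Sp5 encodes a zinc finger factor that competes at Wnt target genes. Its probe gave 59.7, 64.1 and 64.5 on the N2B27 48 hr arrays, against 65.2 and 62.9 on the ESC arrays, and was detected on 0 of 5. A low level of the transcript would not have been detectable. The difference in mean log2 signal was 0.019.

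By role, 1 of the 3 TCF/LEF genes in the fit rose and 2 fell, 0 of 2 genes of beta-catenin and the destruction complex passed, and 1 of 2 feedback genes fell. Of all genes in the fit 45.2% passed. The median absolute log2 change was 0.94, 0.063 and 1.67 in the same order of roles, against 0.33 over all genes in the fit. With 2 or 3 genes in each role these are descriptions of those genes.

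**Figure D3:**
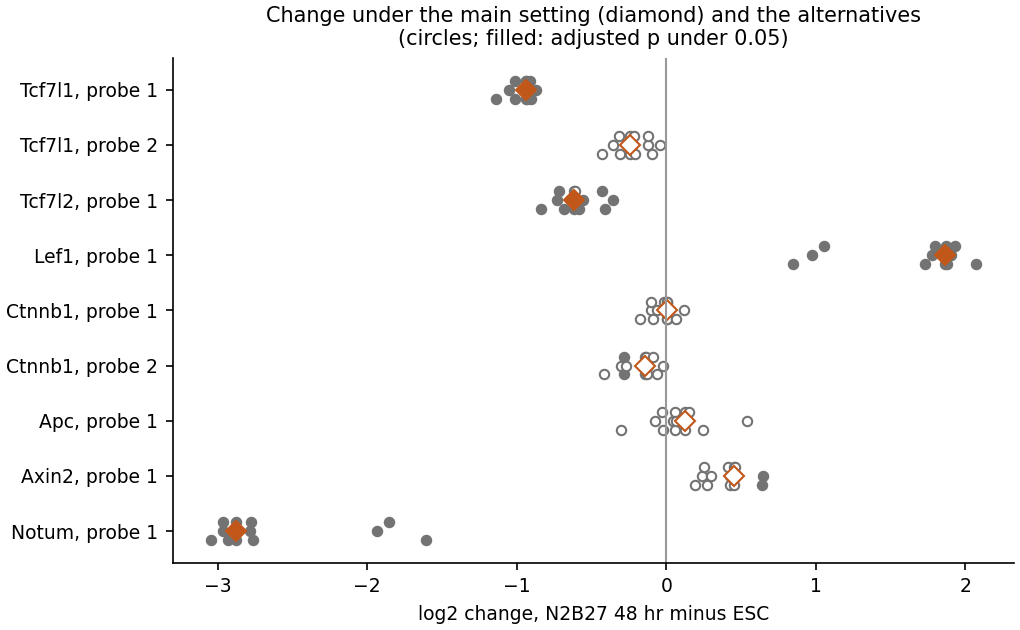
The log2 change (horizontal axis, N2B27 48 hr minus ESC) of each member probe in the main setting (diamond) and under up to 14 alternative settings (circles), filled where the adjusted p was under 0.05. Lef1 and Notum keep their direction and call, with sizes about 1 log2 unit smaller without background correction, with an offset of 50 and in the authors' values, and Ctnnb1 probe 1 and Apc scatter about 0.

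The genes nearest in pattern were found by the Euclidean distance between the 5 log2 values of each gene, centred on its own mean, for the 3 members with the largest changes. For Notum they were Phf11d, Dmtn and Itpka, at distances of 0.20, 0.23 and 0.24. For Lef1 they were Dcn, Csrnp1 and Bend3, at 0.17, 0.27 and 0.27. Dcn, a proteoglycan gene of fibroblasts and other stroma, was likewise detected on all N2B27 48 hr arrays and on 0 ESC arrays. For Tcf7l1 they were Aamdc, Fam110b and Entpd4, at 0.064, 0.090 and 0.094. With 2 groups of arrays, such a list mostly collects genes with a change of the same size.

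Around these members the rest of the pathway was read from lists of ligands, receptors, inhibitors, cytoplasmic parts, nuclear partners and targets. Of 21 genes for Wnt ligands and their secretion, all with a probe, 9 were in the fit, 0 rose and 2 fell (median log2 change 0.069, against 0.049 over all genes). Both that fell were detected in ESC alone and passed the filter through the arrays where they were high, so their calls say nothing of the ligands as a list. With ESC replicate 1 or ESC replicate 2 left out, neither was in the fit and 0 ligand genes changed, and without N2B27 48 hr replicate 3 the number was 4. Wnt6 was at least 1.74-fold lower in the main setting (-1.10, adjusted p = 7.0e-05, and -0.45 without background correction), with signals of 60.0, 57.9 and 58.4 in N2B27 48 hr and 91.3 and 92.1 in ESC. Wnt3a, a canonical ligand of the early embryo, was at least 1.48-fold lower in the main setting (-0.82, adjusted p = 0.000821, and -0.32 without background correction). Porcn, which acylates Wnt proteins, was detected on all arrays and did not pass (0.026, adjusted p = 0.906).

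Of 21 receptor and receptor turnover genes with a probe 10 were in the fit, and 5 rose and 1 fell (median 0.37, against 0.049 over all genes). Over all genes in the fit 45.2% passed. Fzd2 and Ror1 were detected in N2B27 48 hr alone and passed the filter through the arrays where they were high. The count and the median thus say nothing of the receptors as a list. With detection required on all 5 arrays 3 changed. The number that changed was 3 without ESC replicate 1 and 3 without ESC replicate 2. Fzd7, a Frizzled receptor gene of pluripotent cells, gave 456, 676 and 810 on the N2B27 48 hr arrays, against 112 and 100.1 on the ESC arrays, a log2 change of 3.50 ± 0.12 (SE, adjusted p = 7.3e-09). Without background correction it was 2.60. Fzd2, detected on 3 of 3 N2B27 48 hr arrays and 0 of 2 ESC arrays, rose (2.20, adjusted p = 1.3e-06). Its change was 1.05 without background correction and 1.26 in the authors' deposited values, and its bound of 4.42-fold holds for the main background setting alone. Fzd10 was 7.98-fold lower by its brightest probe (adjusted p = 6.1e-08), with a log2 change of -1.75 without background correction. The rise of Ror1, a receptor gene of noncanonical Wnt signalling, was at least 1.30-fold in the main setting (0.64). Without ESC replicate 1 its log2 change was 0.56 (adjusted p = 0.119), and without ESC replicate 2 it was 0.68 (adjusted p = 0.0724), so the size stayed close with 1 ESC array.

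Of 17 genes for secreted and membrane inhibitors with a probe, 11 were not in the fit. Of the 6 that were, 0 rose and 5 fell, Notum included, where 21.4% of all genes in the fit fell. Sfrp2 did not pass (0.17, adjusted p = 0.521). The smallest fall was that of Kremen1 (-0.47, adjusted p = 0.0462). The median log2 change of the 6 was -1.49, against 0.049 over all genes. Sfrp1, a soluble Frizzled-like decoy, gave 89.9, 98.7 and 143 on the N2B27 48 hr arrays and 492 and 475 on the ESC arrays, and was 5.54-fold lower (-2.47 ± 0.19, adjusted p = 1.7e-06). Without background correction its log2 change was -1.79. Dkk3, of the Dickkopf family, was 3.10-fold lower in the fit (-1.63, and -0.71 without background correction). Apcdd1, a membrane inhibitor of Wnt reception, was 2.52-fold lower (-1.34, and -0.56 without background correction). Dkk3 and Apcdd1 were each detected on 1 N2B27 48 hr array and on both ESC arrays, and so passed the filter through the arrays where they were high. With detection required on all 5 arrays 2 inhibitor genes changed. The count therefore says little of the inhibitors as a list.

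Among Dishevelled, the destruction complex and their regulators 20 of 25 genes with a probe were in the fit, 4 rose and 3 fell (median 0.018). Of all genes in the fit 45.2% passed. Csnk1d and Csnk1e, closely related casein kinase genes, went opposite ways by their brightest probes, Csnk1d 1.93-fold higher (0.95, adjusted p = 1.3e-05) and Csnk1e 1.56-fold lower (-0.64, adjusted p = 0.00225). Nkd2, whose product binds Dishevelled, was detected on 1 of 2 ESC arrays and was 1.96-fold higher in the fit (0.97, and 0.39 without background correction). Frat2, a GSK3 binding protein gene, and Usp7, a deubiquitinase gene, were 1.52-fold and 1.37-fold lower. Frat2 did not pass when ESC replicate 1 was left out (-0.57, adjusted p = 0.0554), nor Usp7 when ESC replicate 2 was (-0.37, adjusted p = 0.124). Dvl1, a Dishevelled gene, rose as well (0.56, adjusted p = 0.00628), and so did Ppp2ca (0.38, adjusted p = 0.0038). The kinase gene Gsk3b did not pass (-0.20, adjusted p = 0.332).

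Of the nuclear partners and corepressors, the TCF/LEF genes included, 19 of 23 genes with a probe were in the fit, and 1 rose and 8 fell (median -0.071). The share that changed was close to the 45.2% of all genes in the fit. Over all genes 23.8% rose and 21.4% fell. The 1 that rose was Lef1, which passed the filter through the N2B27 48 hr arrays, where it was high. Pygo1, below, passed it through the ESC arrays, where it was high. The counts by direction thus say little of this list. Some corepressors of the Groucho family bind TCF factors when beta-catenin is absent, and whether each member below does so was not tested. Tle6 gave 66.4, 70.3 and 71.7 on the N2B27 48 hr arrays, against 275 and 239 on the ESC arrays, and was 6.65-fold lower (-2.73 ± 0.14, adjusted p = 8.9e-08). Its change was -1.53 without background correction and -1.77 in the authors' deposited values. Tle5, a short family member that lacks part of the repressor, was 4.73-fold lower (-2.24, adjusted p = 3.6e-07), and its change was -1.39 without background correction. Tle1, Tle3 and Tle4 were added after their values were seen. Tle1 was 2.45-fold lower (-1.29, adjusted p = 8.3e-05), while Tle3 (-0.47, adjusted p = 0.0510) and Tle4 (0.26, adjusted p = 0.0666) did not pass. Tle3 passed with median scaling (adjusted p = 0.0118), with cyclic loess (0.0401) and without N2B27 48 hr replicate 3 (0.0386). Tle4 passed without N2B27 48 hr replicate 1 (0.0434) or replicate 3 (0.0250). With the replicate number as a block both passed (adjusted p = 0.0146 for Tle3 and 0.00363 for Tle4). That fit leaves each probe 1 degree of freedom for its own spread, so its p-values rest mostly on variance shared across probes. Pygo1, which with Bcl9 links beta-catenin to chromatin, was detected on 1 of 3 N2B27 48 hr arrays and was 2.91-fold lower in the fit (-1.54, and -0.67 without background correction), and Pygo2 did not pass (0.12, adjusted p = 0.433).

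**Figure D4:**
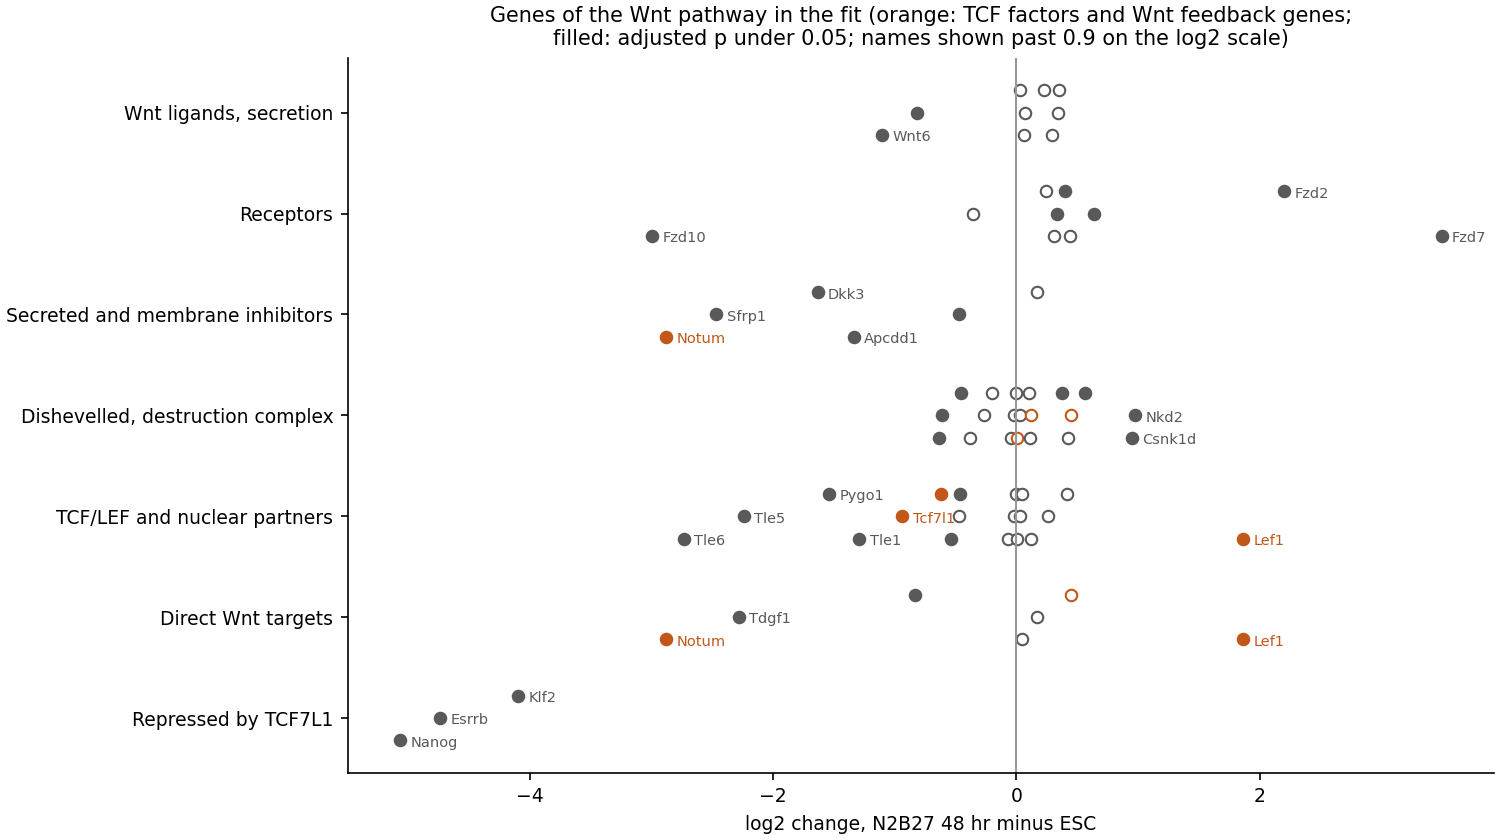
The log2 change (horizontal axis, N2B27 48 hr minus ESC) of each gene in the fit, by list, with members in orange, other genes in grey and filled circles for an adjusted p under 0.05. The 5 changed inhibitors all lie left of 0, Lef1 is the single filled circle right of 0 among TCF/LEF and nuclear partners, and the known TCF7L1-repressed genes lie furthest left.

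Of 18 direct Wnt target genes with a probe 7 were in the fit, and 1 rose and 3 fell (median 0.049, that of all genes being 0.049). Of all genes in the fit 45.2% passed. Lef1, which rose, passed the filter through the arrays where it was high. Beside Notum, which fell, 2 more fell. Tdgf1, the Nodal coreceptor gene, was detected on 2 of 3 N2B27 48 hr arrays and fell 4.86-fold in the fit (-2.28, adjusted p = 0.000112). Its change was -1.28 without background correction and -1.92 without N2B27 48 hr replicate 3. Tnfrsf19 fell 1.78-fold (-0.83, adjusted p = 0.000802). The cyclin gene Ccnd1 was detected on all arrays and did not pass (0.17, adjusted p = 0.124), like Axin2. Dkk1, Lgr5, Rnf43, Znrf3 and Cdx1 were detected on 0 arrays.

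Genes that TCF7L1 is known to repress in mouse embryonic stem cells were lower together with Tcf7l1 itself. All 3 in the fit fell (median -4.74). Nanog, a homeobox gene, gave 106, 109 and 118 on the N2B27 48 hr arrays, against 3085 and 2589 on the ESC arrays. Esrrb, a nuclear receptor gene, gave 228, 273 and 155 in N2B27 48 hr and 5937 and 4901 in ESC, and the Krüppel-like factor gene Klf2 gave 88.3, 100.8 and 101.0 in N2B27 48 hr and 1198 and 1082 in ESC. Without background correction Nanog was at -4.27, against -5.07 in the main setting, and Klf2 at -3.18, against -4.10. These genes were listed with their fall in these samples already known, so their direction is no independent evidence.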

How the data were processed

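Total RNA was amplified into biotinylated cRNA, per the labels' protocols. The deposited table gives a signal intensity and a detection p-value per probe and array, from BeadStudio, per the submitters' processing notes and the file headers. The deposited intensity is linear and not normalized between arrays, and its lowest values, 38.5 to 40.7, lie above 0. The authors' normalized intensity table, used as an alternative, has column medians of 65.2 to 65.3. How it was normalized is not stated in these sources.

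In limma 3.58.1 (R 4.3.3) background was corrected by normexp (nec, negative controls estimated through the detection p-values), an offset of 16 was added, and values were log2 transformed and quantile normalized. Changes are on this log2(value + 16) scale and understate those of dim genes. Probes detected at p under 0.05 on at least 2 of 5 arrays (12605) were fitted with lmFit and eBayes with a variance trend, with two-sided p-values adjusted over these probes (Benjamini-Hochberg, threshold 0.05). The median standard error was 0.145 and the number of arrays limits the precision. Bounds ("at least") are given where a group has 0 arrays with detection, use the lowest signal of a detected probe on each array, and hold for this background setting. The fit step alone was tested on simulated data with known changes in a small share of probes. The simulation included no background correction or normalization, so it tells nothing of those steps. Permutation tests used scipy 1.17.1, and figures matplotlib 3.10.9.

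Symbols come from the platform annotation (23978 probes with 1 symbol, 1719 unnamed here), updated by Entrez identifier through the RefSeq table of GRCm38.p6 (23962 matched). The files name no build, so only the promoter windows have coordinates. Groups came from the sample titles. Members, lists and role classes were chosen with earlier results of these data known. All members are named. From each list, up to 4 genes with the largest changes past the threshold were named, plus up to 2 of the opposite direction, by a rule written down beforehand. Where the 4 split evenly, higher was taken as their direction, a point the rule had not stated. Porcn, Gsk3b, Dvl1, Ppp2ca, Pygo2, Ccnd1, Kremen1, Sfrp2 and undetected genes were picked as examples with their values in view.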

Additional observations from a re-analysis of the deposited data

How the results depend on the processing

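Tcf7l1 by its brighter probe passed in all 14 alternatives, and Lef1 and Notum in the 13 that tested their probes. Tcf7l2 passed in 12 of 14, the exceptions being those without ESC replicate 1 or 2. Requiring detection on all 5 arrays removed Lef1 and Notum, and 2 member genes passed, against 4. It left 0 changed ligand genes, 3 receptor genes, 2 inhibitors and 1 direct target, against 2, 6, 5 and 4. Scaling each array to its median shifted the median of all genes to -0.11 on the log2 scale, against 0.049. With it 3540 probes passed (1061 higher and 2479 lower), against 5427 (2901 higher and 2526 lower), and the brighter Ctnnb1 probe was at -0.17 (adjusted p = 0.700). Leaving out each array gave 3108 to 5760 probes, the lowest counts without ESC replicate 2 (3108) and replicate 1 (3175). The shift of Lef1 against Tcf7l1 kept its direction, at 1.76 to 3.01. The deviations of same-numbered arrays from their group means had r = -0.085 and -0.028. As the deviations of 2 ESC arrays mirror each other, this check cannot settle whether the numbers pair the samples. With the replicate number as a block 5946 probes passed. Of the members Axin2 (0.64, adjusted p = 0.00155) and the dimmer Ctnnb1 probe (-0.28, adjusted p = 0.0219) passed with it, and of the other named genes Tle3 and Tle4. N2B27 48 hr replicate 3 has no ESC partner and drops out of that comparison. The block leaves each probe 1 degree of freedom for its own spread. Its p-values thus rest mostly on variance shared across probes and are not comparable with those of the main setting. No member call reversed its direction. The causes of these shifts were not tested. Signal near background limits Sp5, Lef1 in ESC, Notum in N2B27 48 hr, and the dim probes of Tcf7l2, Lef1 and Apc. The files give neither slides nor scan dates, so batches were not tested.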
